A study of Mus musculus with 6 samples.

Results

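The genes described are 30 targets of p53, the transcription factor that answers DNA damage and other stress. They were taken by name from a table of 24413 genes measured in tendon cells with and without medium from cultures of sensory ganglia. p53 is held low by the ubiquitin ligase MDM2, which p53 itself switches on. When p53 is stabilised it raises genes that stop the cell cycle, that release death signals from mitochondria or at the cell surface, that limit growth signalling and oxidants, and that repair DNA. In connective tissue cells brought into culture, Cdkn1a, the gene of the cell cycle inhibitor p21, and Mdm2 are commonly expressed without any added damage. Several members are not p53 targets alone: the polo-like kinases Plk2 and Plk3 also answer growth factors, Sesn2 also answers amino acid stress, and Ckap2 and Gtse1 follow the cell cycle.

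The cells were sorted by their tdT reporter from Achilles tendons of 3 male mice aged 12 weeks with the genotype Tppp3ECE/+;R26RtdT-CreERT2;Scx-GFP, so that the reporter was set by Tppp3, a gene of tendon sheath progenitors, and both groups carried the same alleles. Control libraries came from cells kept for 24 h in medium with 1% FBS, and conditioned libraries from cells kept for 24 h in medium taken from cultures of lumbar dorsal root ganglia (DRG), where the cell bodies of sensory neurons lie. Those ganglia came from 3 male C57BL/6J mice aged 12 weeks and were grown for 4 to 5 days in medium with 5% FBS. That medium held 20 µM each of uridine and a fluorinated deoxyuridine, a thymidine analogue that blocks DNA synthesis in dividing cells. Fresh medium with 1% FBS then replaced it for collection. Any carry-over of the drugs or of the earlier serum into the collected medium was not measured in these data. Such carry-over cannot be told apart from products of the ganglia. Each group had 3 libraries, called biological replicates by the submitters. No label ties a library to an animal, so p-values rest on the spread among these libraries, which may be technical in part.

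Depth was 18774550 to 26061245 fragments per library, and the first principal component (39.8% of the variance) parted the 2 media. Values are FPKM, fragments scaled to gene length and to the library's total. Of 8 tendon markers 7 had a mean of at least 1 FPKM, among them Scx, the tendon transcription factor, with means of 13.2 ± 0.551 and 11.5 ± 0.433 FPKM in control and conditioned libraries (SD, n = 3), while Tppp3 itself had 0.903 ± 0.166 and 0.908 ± 0.185 FPKM. Of these 7 markers 5 fell with conditioned medium, but Scx did not pass (limma adjusted p = 0.073). The list's sum was 3520 to 3590 FPKM without and 2780 to 2850 FPKM with conditioned medium. Most of it came from Col1a1, a collagen gene with means of 3337 and 2662 FPKM. Of 12 DRG neuron markers 2 reached 1 FPKM, with sums of 25.9 to 29.6 FPKM without and 20.5 to 22.3 FPKM with it, mostly from Tubb3, and Rbfox3, Snap25, Tac1 and Scn10a had no entry. Of 8 glial markers 2 reached that level (sums of 16.8 to 18.7 and 12.9 to 15.3 FPKM), as did 1 of 8 endothelial or mural markers (6.76 to 7.43 and 5.02 to 5.42 FPKM). So did 2 of 8 leukocyte markers (3.63 to 5.09 and 3.21 to 4.14 FPKM, with no entry for C1qb and Tyrobp) and 3 of 8 skeletal muscle markers (42.4 to 46.1 and 42.7 to 45.7 FPKM, with no entry for Myh4, Ckm, Myod1 and Pax7). These bulk values cannot tell fewer cells of a type from less RNA per cell, and the part of any other cell type in the values below was not tested.

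The sequences before the start sites of the members show how differently p53 motifs are placed among them. In windows of 250 bases before each start (RefSeq, GRCm38.p6, the mm10 build), 22 of the 30 members had an entry. Starts differ between annotations. In the GENCODE annotation Gadd45a and Ei24 reach past the half-sites printed below, and Sesn2 reaches into its printed window. The p53 half-site consensus, a palindrome of 10 bases and so the same on both strands, was found in 11 of these 22 (50%), against 8.2% of 27025 genes with an entry. The members are known p53 targets, so this share describes the list and is no result of the experiment. The stretches below hold the half-sites, in capitals, of members with different roles and levels.
Cdkn1a (chr17:29090881-29090962, plus strand): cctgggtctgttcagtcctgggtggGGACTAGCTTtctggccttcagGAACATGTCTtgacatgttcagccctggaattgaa
Mdm2 (chr10:117710910-117710969, minus strand): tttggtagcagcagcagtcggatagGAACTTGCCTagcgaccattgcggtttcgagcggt
Ccng1 (chr11:40755437-40755496, minus strand): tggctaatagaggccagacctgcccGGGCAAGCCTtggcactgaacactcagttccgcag
Bax (chr7:45467065-45467124, minus strand): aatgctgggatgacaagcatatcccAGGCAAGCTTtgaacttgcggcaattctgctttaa
Gadd45a (chr6:67037413-67037472, minus strand): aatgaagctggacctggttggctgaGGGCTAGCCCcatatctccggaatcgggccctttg
Ei24 (chr9:36797335-36797369, minus strand): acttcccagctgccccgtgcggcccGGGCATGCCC
Ckap2 (chr8:22185988-22186047, minus strand): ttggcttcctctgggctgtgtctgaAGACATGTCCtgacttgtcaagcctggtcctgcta
The Cdkn1a stretch, before the upstream one of its start sites, was the only member window with a pair of half-sites no more than 13 bases apart, which 18 of the 27025 genes (0.0666%) had. None of the 3 members that fell with conditioned medium, Plk2, Plk3 and Sesn2, had a half-site in its window, which says only that these letters are not in these bases. Their whole windows follow, with a cAMP response element (CRE, TGACGTCA, the same on both strands) in capitals, a motif searched after the Plk2 window had been read.
Plk2 (chr13:110394794-110395043, plus strand): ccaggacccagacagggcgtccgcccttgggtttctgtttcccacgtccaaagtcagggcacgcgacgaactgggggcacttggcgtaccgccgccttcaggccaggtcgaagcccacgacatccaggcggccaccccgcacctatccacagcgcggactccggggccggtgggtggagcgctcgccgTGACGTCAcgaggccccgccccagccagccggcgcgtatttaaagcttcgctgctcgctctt
Plk3 (chr4:117133964-117134213, minus strand): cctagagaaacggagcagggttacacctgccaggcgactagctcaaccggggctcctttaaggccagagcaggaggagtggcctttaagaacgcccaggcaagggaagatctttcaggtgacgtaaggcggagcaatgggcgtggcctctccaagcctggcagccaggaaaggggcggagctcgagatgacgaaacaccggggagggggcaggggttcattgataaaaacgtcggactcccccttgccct
Sesn2 (chr4:132510457-132510706, minus strand): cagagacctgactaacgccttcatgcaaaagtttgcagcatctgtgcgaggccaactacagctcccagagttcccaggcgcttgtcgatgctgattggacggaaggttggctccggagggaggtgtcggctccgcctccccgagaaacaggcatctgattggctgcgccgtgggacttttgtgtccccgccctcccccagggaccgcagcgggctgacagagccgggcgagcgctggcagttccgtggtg
The CRE was found before the start sites of Plk2 and Btg2, 2 of the 22 members, and 1.77% of the 27025 genes had one. The Plk2 window was read before the search, so its hit was given in advance and these 2 shares cannot be compared. Bases just after the Btg2 start used here were not found in its GENCODE transcripts. The CArG box, the site of serum response factor, was found in 1 member, Tigar, against 1.62% of the 27025 genes.

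The comparison of conditioned with control libraries asks what medium from sensory ganglion cultures did to these genes. With conditioned medium 3 p53 target genes fell, Plk3, Plk2 and Sesn2, by 25.2%, 14.6% and 14.1% of their control means, and none rose in limma. Phlda3, Ccng1 and Cdkn1a, the 3 most abundant members, had differences of -8.7%, -1.5% and -3.0% that did not pass. Of the 30 members 28 had a mean of at least 1 FPKM and were tested in limma on log2(FPKM + 1), with p-values adjusted over all 11678 genes tested. The 3 lower calls of 28 stand against 2.49% of all genes tested called lower, and the 0 higher calls against 4.04% called higher (6.53% in both directions). At an unadjusted p below 0.05, 10 members were lower (8.41% of all genes) and 1 was higher (11.2%; 19.6% in both directions). By voom, limma's weighted fit on whole fragments, 6 members were called lower (3.69% of all genes) and 1, Ckap2, was called higher (5.42%; 9.11% in both directions).

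The members differed by small amounts. Their log2 fold changes, conditioned minus control, ran from -0.37 to 0.24 with a median of -0.06, against a median of 0.01 over all genes tested, and 19 of 28 were negative (67.9%, against 48.0% of all genes). In 12 of 28 members (42.9%) the 3 libraries of one group all lay above the 3 of the other, against 26.0% of all genes tested. Of these, 9 lay lower with conditioned medium, against 11.6% of all genes, and 3 lay higher, against 14.3%. Set against the control mean, the median member was -0.08, -0.05 and -0.07 on the log2 scale in conditioned replicates 1, 2 and 3, and -0.01, 0.01 and 0.00 in control replicates 1, 2 and 3. The control values are set against a mean that includes them, which draws them toward 0. They do not show how far a further control library would stray. The heat map of all members shows the lower conditioned values as a shift toward blue in the conditioned columns that is uneven across genes.

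**Figure D1:**
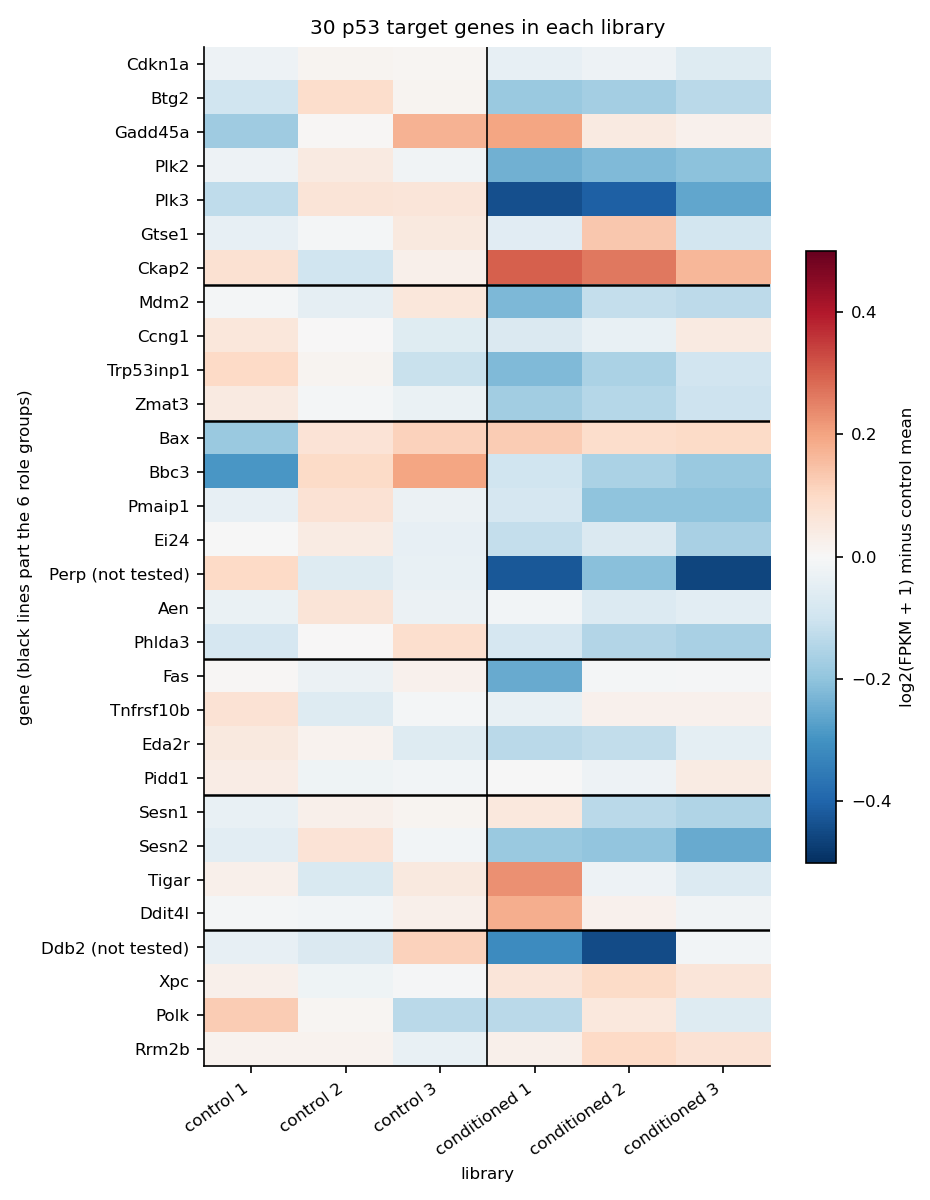
Each of the 30 p53 target genes (rows, in 6 role groups parted by black lines) in each of the 6 libraries (columns), as log2(FPKM + 1) minus the mean of the 3 control libraries, with blue lower and red higher. The darkest blue cells belong to Plk3, Perp and Ddb2, the last 2 of which lay below the level tested, and Ckap2 is red in all 3 conditioned libraries.

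Among the cell cycle brakes and kinases, 2 of 7 members fell, 0 rose and 5 did not pass. Plk2 and Plk3, polo-like kinases that act in stress and cell cycle checkpoints, lay lower in every conditioned library. Plk2 had 40.4, 42.5 and 40.6 FPKM in control replicates 1, 2 and 3, and 34.7, 35.2 and 35.6 FPKM in conditioned replicates 1, 2 and 3. The groups were 4.8 FPKM apart at their nearest, and the log2 fold change was -0.22 ± 0.04 SE (limma adjusted p = 0.0091). Plk3, expressed at a lower level per length, had 7.84, 9.10 and 9.07 FPKM in control and 6.12, 6.28 and 7.07 FPKM in conditioned libraries. All 3 conditioned values lay below all 3 control values, and the log2 fold change of -0.37 ± 0.07 SE was the most negative of the tested members (limma adjusted p = 0.023). The Plk2 call was lost without conditioned replicate 1 or 2 (limma adjusted p = 0.052 and 0.051), and the Plk3 call without control replicate 2 or 3 or conditioned replicate 1 or 2 (limma adjusted p = 0.075 to 0.10).

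Cdkn1a, which binds and blocks cyclin-dependent kinases, was expressed at a high and even level. It had 139, 144 and 143 FPKM in control and 138, 139 and 136 FPKM in conditioned libraries. The groups overlapped at 139 FPKM, and the 95% interval of its log2 fold change ran from -0.12 to 0.03 (limma adjusted p = 0.50). Btg2, an antiproliferative partner of the deadenylation machinery, had 52.3, 59.9 and 56.7 FPKM in control and 49.2, 49.9 and 51.1 FPKM in conditioned libraries, without overlap. Its log2 fold change of -0.16 ± 0.05 SE did not pass (limma adjusted p = 0.12) but did by voom (adjusted p = 0.039). Gadd45a, a DNA damage-inducible regulator of growth arrest, had means of 3.53 ± 0.549 and 3.80 ± 0.325 FPKM without and with conditioned medium (SD, n = 3), with overlap.

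Ckap2 and Gtse1 encode microtubule-associated proteins that peak around mitosis. Ckap2 had 14.2, 12.5 and 13.7 FPKM in control and 16.8, 16.3 and 15.2 FPKM in conditioned libraries. Its log2 fold change of 0.24 ± 0.06 SE was the highest of the tested members, followed by Bax at 0.10. All 3 conditioned libraries lay higher, but it missed the threshold (limma adjusted p = 0.052), while voom called it (adjusted p = 0.020). Gtse1, which also restrains p53 after damage, had means of 24.9 ± 0.825 and 24.8 ± 2.21 FPKM without and with it (SD, n = 3), and a 95% interval of the log2 fold change from -0.15 to 0.14.

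**Figure D2:**
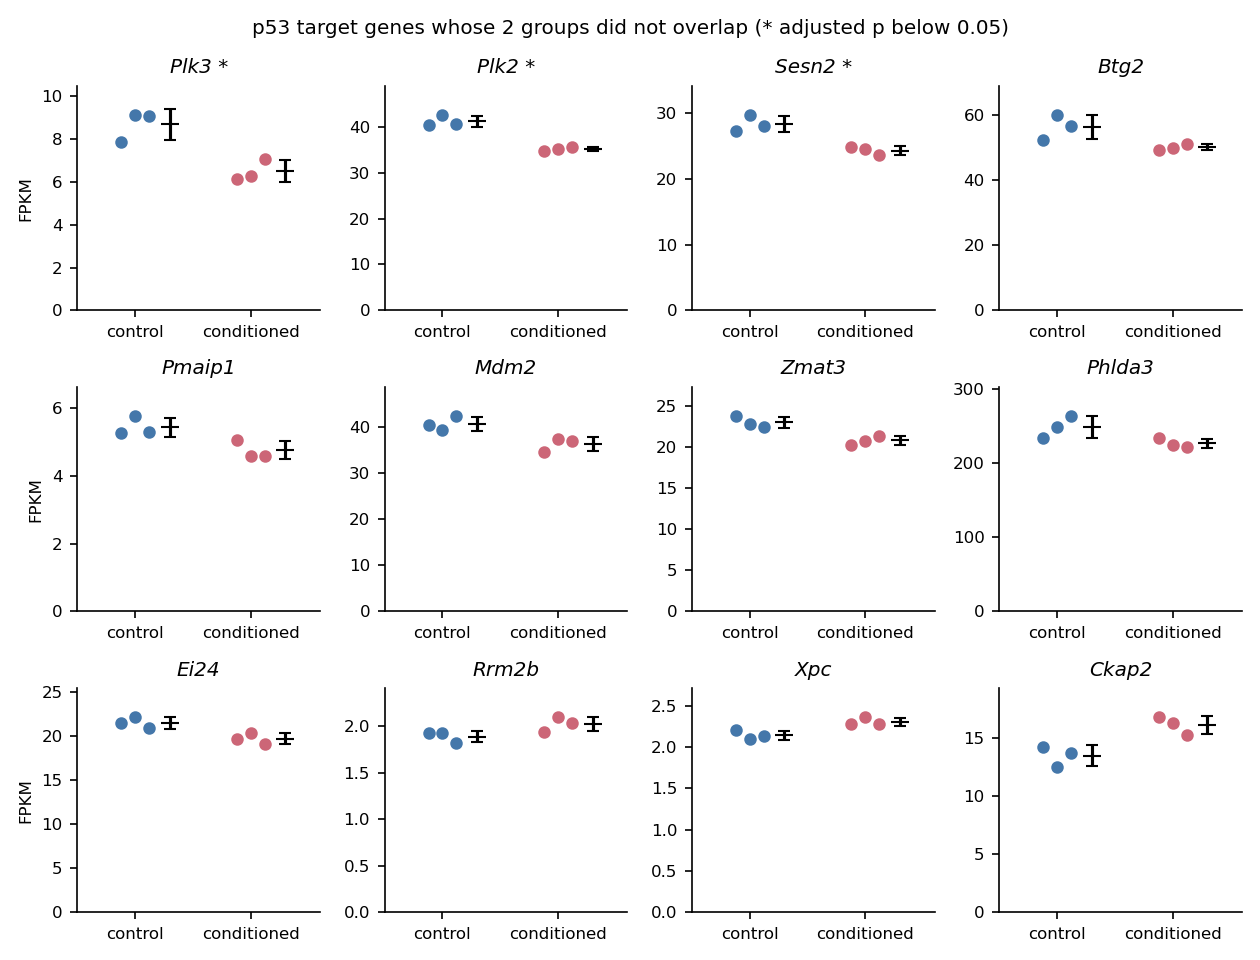
FPKM of the 12 tested p53 target genes whose groups did not overlap, ordered from the most negative to the most positive log2 fold change, with 1 point per library (blue control, red conditioned) and the mean ± SD beside them. Plk3, Plk2 and Sesn2, marked with an asterisk, passed at an adjusted p below 0.05, and Phlda3 and Rrm2b show groups that all but touch.

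None of the 4 feedback genes, which limit p53 or tune its output, passed in limma (3 at an unadjusted p below 0.05, 2 by voom), and all 4 had negative log2 fold changes. Mdm2, the ligase that marks p53 for degradation, had 40.3, 39.4 and 42.3 FPKM in control and 34.6, 37.4 and 37.0 FPKM in conditioned libraries. The groups were 2.0 FPKM apart, with a log2 fold change of -0.158 ± 0.045 SE (limma adjusted p = 0.087, voom adjusted p = 0.024). Zmat3, an RNA-binding zinc finger protein, had 23.8, 22.9 and 22.5 FPKM in control and 20.3, 20.8 and 21.4 FPKM in conditioned libraries. It too was lower in every conditioned library, by -0.14 ± 0.04 SE on the log2 scale (limma adjusted p = 0.095, voom adjusted p = 0.022). Trp53inp1, a stress protein that helps p53 act, had 30.1 ± 2.25 and 26.8 ± 1.21 FPKM (SD, n = 3) and overlapped. Ccng1, a cyclin that recruits a phosphatase to MDM2, had the highest mean of this role group, with 243, 234 and 224 FPKM in control and 222, 227 and 241 FPKM in conditioned libraries. Its groups overlapped over most of their range, and the 95% interval of its log2 fold change ran from -0.12 to 0.08.

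The death effectors inside the cell had 0 passing of 6 tested in limma (3 at an unadjusted p below 0.05, 0 by voom), and 5 of 6 log2 fold changes were negative. Phlda3, which competes with the kinase AKT for membrane lipids, was the most abundant, with 234, 248 and 263 FPKM in control and 234, 224 and 222 FPKM in conditioned libraries. Its groups were parted by 0.067 FPKM, so the lack of overlap rests on the nearest pair of libraries (log2 fold change -0.13 ± 0.05 SE, limma adjusted p = 0.17). Pmaip1, the BH3-only protein NOXA, had 5.26, 5.76 and 5.30 FPKM in control and 5.07, 4.60 and 4.60 FPKM in conditioned libraries. Ei24, a membrane protein of the endoplasmic reticulum, had 21.4, 22.1 and 20.8 FPKM in control and 19.7, 20.4 and 19.0 FPKM in conditioned libraries. Neither overlapped, with log2 fold changes of -0.16 ± 0.06 SE and -0.12 ± 0.04 SE (limma adjusted p = 0.18 and 0.17).

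Bax, the pore-forming protein of the mitochondrial outer membrane, and Bbc3, the BH3-only protein PUMA, were each set apart by one control library. Bax had 56.7, 67.6 and 70.0 FPKM in control and 70.6, 68.6 and 69.0 FPKM in conditioned libraries. Bbc3 had 15.5, 20.6 and 22.1 FPKM in control and 17.8, 17.1 and 16.7 FPKM in conditioned libraries. Control replicate 1 was the lowest library for both genes. Without it, the log2 fold change of Bbc3 moved from -0.15 (limma adjusted p = 0.58) to -0.29 (limma adjusted p = 0.016), and that of Bax from 0.10 to 0.01. Without control replicate 2 or 3, Bbc3 moved the other way, to -0.10 and -0.05 (limma adjusted p = 0.80 and 0.86). Bbc3 passed in only 1 of the 15 other settings. Aen, an apoptosis-related nuclease, overlapped with 18.6 ± 0.783 and 18.0 ± 0.370 FPKM (SD, n = 3).

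Perp, a membrane protein of cell junctions and cell death, lay below the level tested. It had 1.21, 0.976 and 1.02 FPKM in control and 0.542, 0.790 and 0.502 FPKM in conditioned libraries, from 23 to 55 fragments. All 3 conditioned values were lower, by 42.8% of the control mean, but with no filter on level the difference did not pass (limma adjusted p = 0.17).

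Of the 4 members that are death receptors or the scaffold Pidd1, 0 passed in limma (0 at an unadjusted p below 0.05, 0 by voom). The groups of all 4 overlapped. Tnfrsf10b, the mouse TRAIL receptor, was the most abundant, with 20.0, 18.1 and 18.9 FPKM in control and 18.5, 19.3 and 19.3 FPKM in conditioned libraries. The 95% interval of its log2 fold change ran from -0.11 to 0.11. Fas, the receptor for FAS ligand, had 14.0 ± 0.266 and 13.1 ± 1.34 FPKM (SD, n = 3), with conditioned replicate 1 at 11.6 FPKM, the lowest of the 6 libraries. Eda2r, a receptor for an ectodysplasin, had 13.1 ± 0.571 and 12.1 ± 0.429 FPKM, and Pidd1, a scaffold for caspase-2, had 4.72 ± 0.126 and 4.74 ± 0.130 FPKM (SD, n = 3).

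Among the 4 metabolic and redox regulators, Sesn2 fell and the other three did not pass. Sesn2, a sestrin that senses leucine and restrains mTORC1, had 27.2, 29.7 and 28.02 FPKM in control and 24.8, 24.6 and 23.6 FPKM in conditioned libraries. The groups were 2.4 FPKM apart, with a log2 fold change of -0.21 ± 0.04 SE (limma adjusted p = 0.028). It no longer passed when control replicate 2 or 3 or any conditioned replicate was left out (limma adjusted p = 0.066 to 0.10). Its relative Sesn1 had 7.66 ± 0.196 and 7.22 ± 0.655 FPKM (SD, n = 3) and overlapped. Tigar, a phosphatase that lowers glycolysis, and Ddit4l, an inhibitor of mTORC1, had log2 fold changes of 0.04 and 0.06 with conditioned replicate 1 the highest library for each, at 3.31 and 12.6 FPKM.

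The DNA repair and nucleotide genes had 0 passing of 3 tested in limma (0 at an unadjusted p below 0.05, 0 by voom). Polk, a translesion DNA polymerase, was the most abundant, with 14.0, 12.9 and 11.5 FPKM in control and 11.5, 13.3 and 12.2 FPKM in conditioned libraries, which overlapped throughout. Xpc, a damage sensor of nucleotide excision repair, had 2.20, 2.10 and 2.13 FPKM in control and 2.28, 2.36 and 2.28 FPKM in conditioned libraries. Rrm2b, the p53-inducible subunit of ribonucleotide reductase, had 1.92, 1.92 and 1.82 FPKM in control and 1.94, 2.10 and 2.04 FPKM in conditioned libraries. Both lay higher in every conditioned library, by gaps of 0.073 and 0.013 FPKM, with log2 fold changes of 0.07 ± 0.06 SE and 0.07 ± 0.06 SE (limma adjusted p = 0.56 and 0.64). Ddb2, which recognises ultraviolet damage, lay below the level tested with 1.08 ± 0.147 and 0.752 ± 0.276 FPKM (SD, n = 3) from 27 to 70 fragments.

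**Figure D3:**
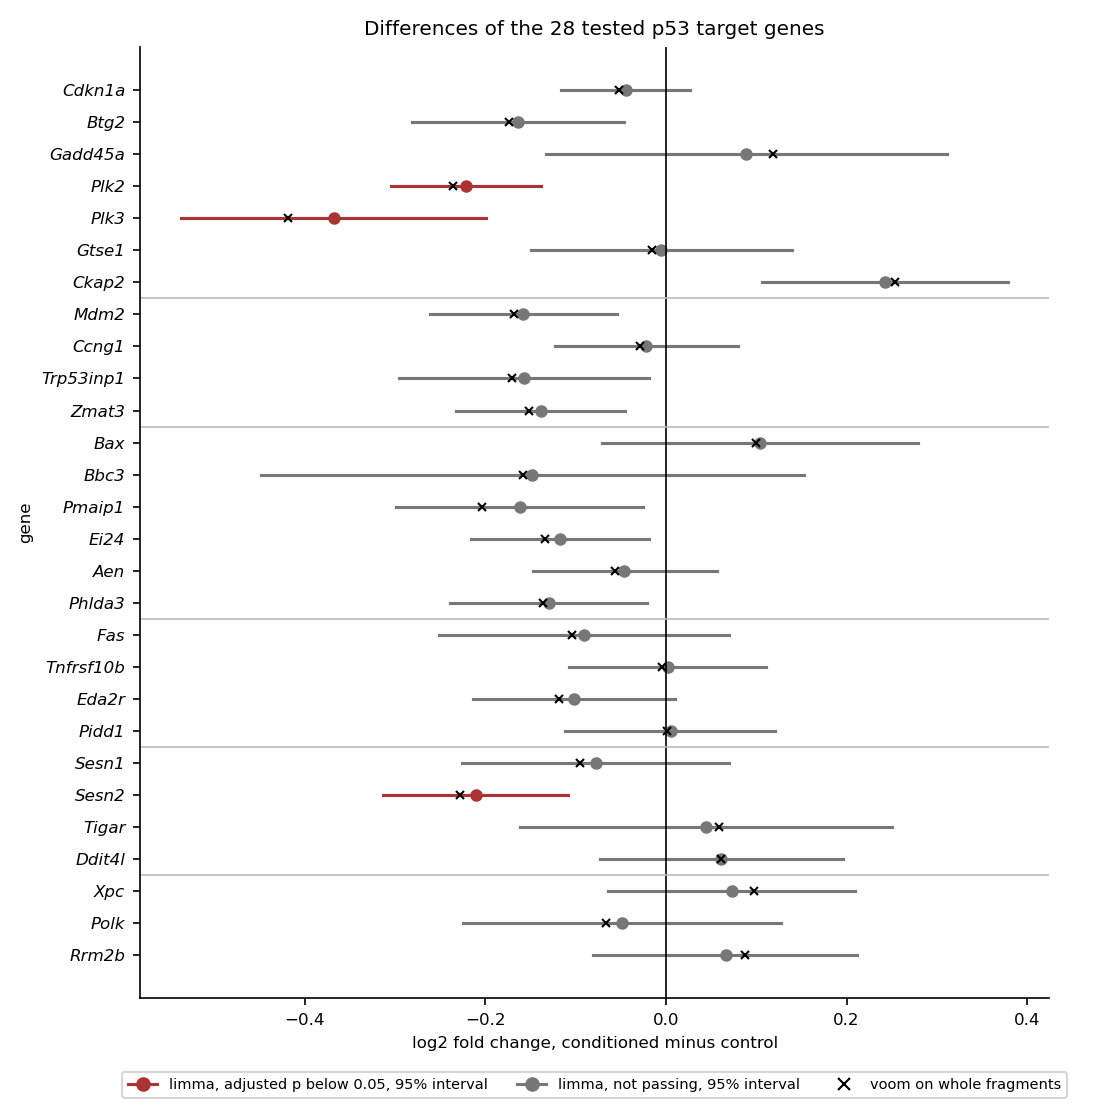
Log2 fold change (conditioned minus control) of each of the 28 tested p53 target genes with its 95% interval from limma, grey lines parting the role groups, and the value from voom on whole fragments as a cross. The 3 genes in red, Plk2, Plk3 and Sesn2, passed at an adjusted p below 0.05, and the intervals of Btg2, Mdm2, Trp53inp1, Zmat3, Pmaip1, Ei24, Phlda3 and Ckap2 also lie to one side of 0 before adjustment.

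The genes around the members give the setting of these values. For the limma counts in this and the following lists, 2.49% of all genes tested were called lower and 4.04% higher. Trp53, the gene of p53 itself, had 23.8, 22.4 and 22.7 FPKM in control and 22.3, 20.8 and 19.9 FPKM in conditioned libraries. Its log2 fold change of -0.12 ± 0.05 SE did not pass (limma adjusted p = 0.23), and transcript level says little of p53 protein, which is set mainly by degradation. Mdm4, the partner of MDM2, had 5.33 ± 0.304 and 5.11 ± 0.380 FPKM (SD, n = 3). Of 21 tested genes of p53 and its regulators, 0 passed in limma (4 at an unadjusted p below 0.05, 1 by voom), with a median log2 fold change of 0.02. Of 21 further p53 targets, 1 rose, 1 fell and 19 did not pass, with a median of -0.03. Steap3, a ferrireductase, rose from 11.6 ± 0.723 to 13.6 ± 0.216 FPKM (limma adjusted p = 0.049), and Igfbp3, an IGF-binding protein, fell from 2.08 ± 0.388 to 1.05 ± 0.104 FPKM (limma adjusted p = 0.014; SD, n = 3). Steap3 passed in only 1 of 6 fits that left out a library, the one without control replicate 3, and did not pass with a pseudocount of 0.1, TMM factors, quantile normalization, neither trend nor robust prior, or no filter on level. Igfbp3 did not pass without conditioned replicate 2 or with no filter on level.

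The relatives of the members did not share one direction. Of 17 tested, 2 rose, 1 fell and 14 did not pass. Plk1, the mitotic relative of Plk2 and Plk3, had 10.1, 11.0 and 10.6 FPKM in control and 13.7, 13.6 and 13.1 FPKM in conditioned libraries, with a log2 fold change of 0.32 ± 0.05 SE (limma adjusted p = 0.0047). Plk4, which copies centrioles, had 2.38 ± 0.107 and 2.45 ± 0.110 FPKM, Plk5 had at most 4 fragments in any library, and Sesn3 had 14.1 ± 0.925 and 14.1 ± 0.407 FPKM (SD, n = 3). Gadd45b rose by 0.31 (limma adjusted p = 0.016), and Cdkn1c, the p57 relative of Cdkn1a, fell from 10.1 ± 0.698 to 6.83 ± 0.109 FPKM (SD, n = 3; limma adjusted p = 0.0014). Without control replicate 3 or conditioned replicate 1 or 2, or with no filter on level, Gadd45b did not pass, while Plk1 and Cdkn1c passed in every setting tried.

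Genes that p21 holds down through the DREAM complex, most of them mitotic, lay on the other side of 0 from most members. Of 20 tested, 5 rose, 0 fell and 15 did not pass, all 20 log2 fold changes were positive, and their median was 0.14. Among all genes tested, 4.04% were called higher and 48.0% had a negative log2 fold change. Kif20a, a mitotic kinesin, rose from 7.18 ± 0.130 to 9.51 ± 0.745 FPKM (SD, n = 3), and Tpx2, Kif2c and Cdc20 rose by 0.27, 0.24 and 0.26. A list of 20 genes held cyclins, cyclin-dependent kinases and their inhibitors, with Rb1, Rbl1, Rbl2, E2f1 and E2f4. Of these 20 genes 1 rose, Ccnb2 (0.46), and 2 fell, Cdkn2b (-0.29) and Ccnd1 (-0.15). With no filter on level 1 of the 20 DREAM genes passed. Without conditioned replicate 1, 0 of them passed in limma, and without control replicate 2 or 3 or conditioned replicate 2 or 3, 2 passed. All 20 stayed positive with other scalings, and 0 to 2 were negative when a library was left out. Among the fits that left out a library, Ccnd1 passed only without control replicate 1, and it did not pass with no filter on level or with neither trend nor robust prior. The difference between this list and the members was not tested, and the part of cell division in the values of Ckap2 and Gtse1 was not tested.

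Immediate early and growth factor response genes, which share inducers with Plk2 and Plk3, had 9 lower, 2 higher and 16 not passing of 27, with a median of -0.13. Nr4a1, an orphan nuclear receptor, fell from 25.01 ± 1.04 to 17.0 ± 0.671 FPKM (SD, n = 3), and Egr2, Egr3 and Dusp5 fell by 0.43, 0.79 and 0.45. Fosl2 rose by 0.40 and Srf by 0.31. In 19 of the 27 the conditioned libraries all lay lower, against 11.6% of all genes tested. Without control replicate 2 or 3 or any of the conditioned replicates, 5 to 6 passed as lower, and 5 passed with no filter on level. Srf did not pass without control replicate 2 or conditioned replicate 1 or 2, with no filter on level, or with neither trend nor robust prior. The ATF4 stress response, which shares Sesn2, had 0 passing of 14 in limma (1 at an unadjusted p below 0.05, 0 by voom), with a median of 0.03. Of 16 BCL2 family and caspase genes 1 fell, Casp8, the caspase of death receptors (-0.21; not passing without control replicate 2 or any one conditioned replicate), and of 17 DNA damage and repair genes 1 rose, Rpa1, a single-stranded DNA-binding protein (0.31). The part of these responses in the falls of Plk2, Plk3 and Sesn2 was not tested.

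**Figure D4:**
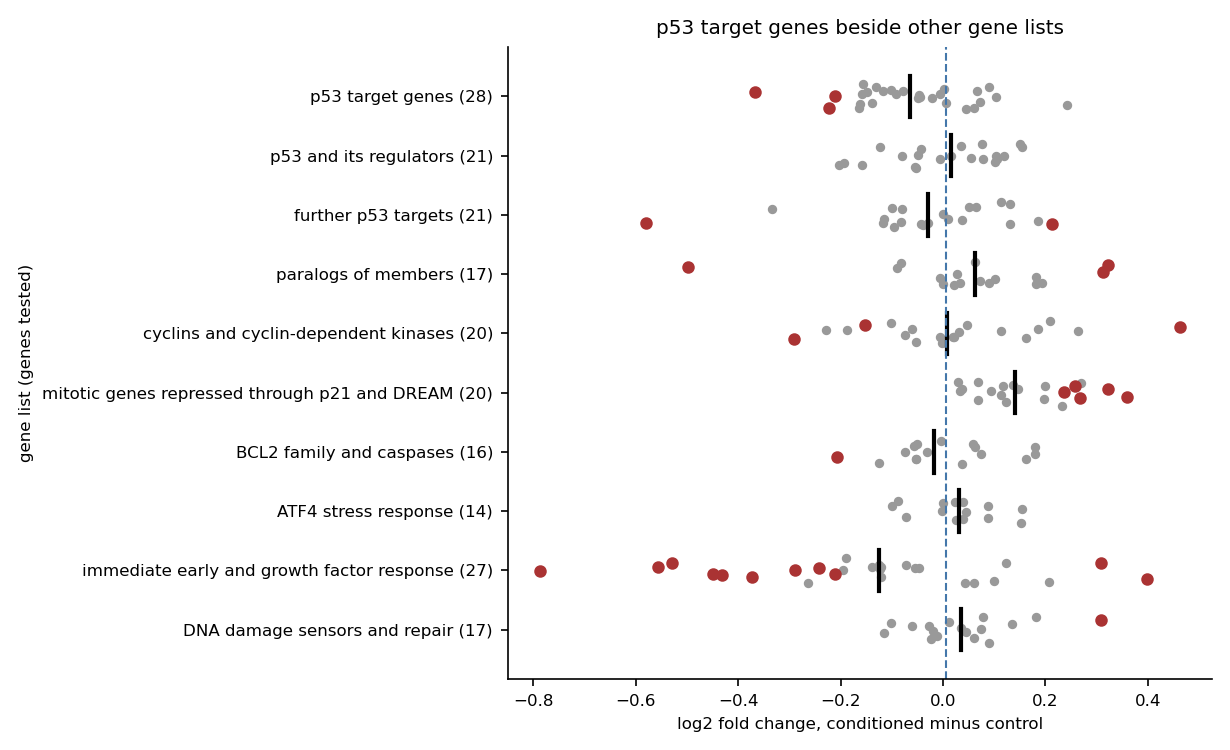
Log2 fold change (conditioned minus control) of each tested gene of the p53 target list and of 9 other lists, with grey points not passing, red points at an adjusted p below 0.05, a black bar at the list median and a dashed line at the median of all genes tested. The p53 target genes have a median of -0.06, between the immediate early list at -0.13 and the mitotic list at 0.14.

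**Figure D5:**
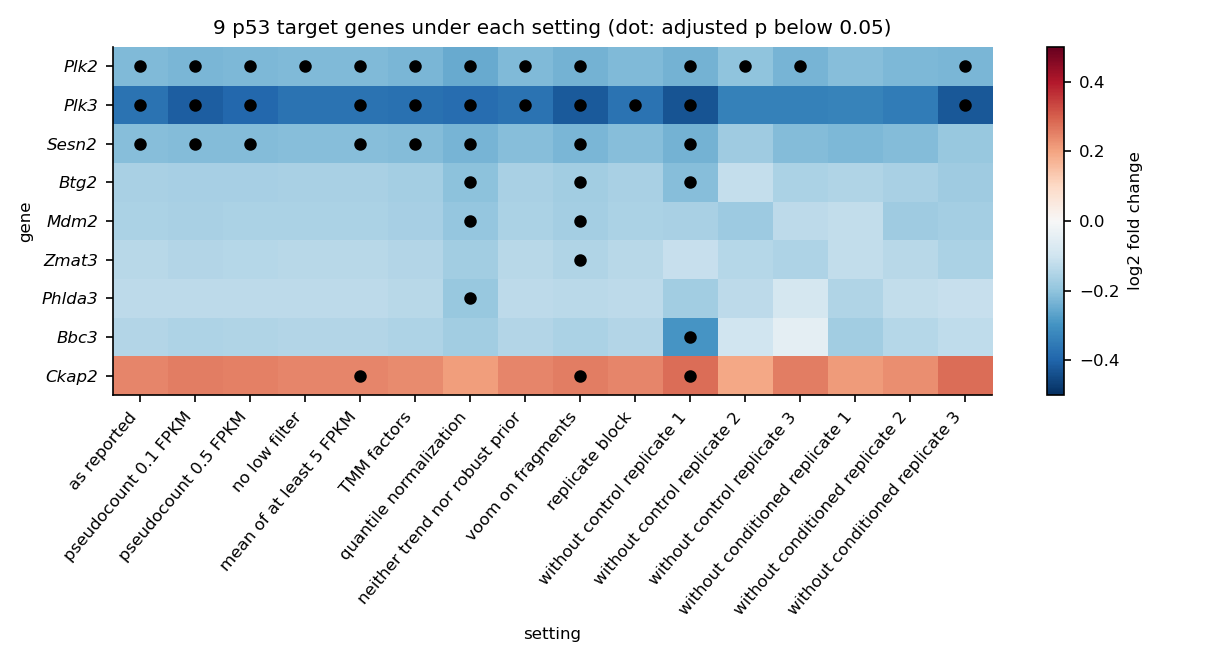
Log2 fold change (colour) of the 9 p53 target genes that passed under at least 1 setting, in the reported fit and in each of 15 other settings (columns), with a dot where the adjusted p was below 0.05. Plk2, Plk3 and Sesn2 carry dots in 12, 10 and 7 of the 15, Bbc3 only without control replicate 1, and each gene keeps the sign of its log2 fold change throughout.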

How the data were processed

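RNA was extracted from sorted cells, poly-A selected and sequenced in pairs, per the labels' protocols. The authors deposited FPKM values for 24413 genes in 6 libraries. CASAVA, HISAT2 2.0.5 and mm10 are named, with no role, per the submitters' processing notes, while the sources used here give no counting program, annotation release or strand setting. All 24413 genes gave whole fragments within 0.0001 fragment, which supplied the depth and the voom fit. For 23552 of them the gene length was the exon union in GENCODE M21. For the others the smallest length that gave whole fragments was taken, so their whole fragments are in part built in. The total the authors divided by exceeded these fragments by -0.00867% to 1.07%. The negative value was in conditioned replicate 1. Its cause was not tested, and depth is approximate at that scale.

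Values were tested as log2(FPKM + 1) in limma 3.58.1 (R 4.3.3; trend, robust prior, two-sided, no covariate) for the 11678 genes averaging 1 FPKM or more, with Benjamini-Hochberg adjustment and a threshold of 0.05. This scale understates changes of low genes. Members and lists were chosen with earlier results of these data known. Values per library are given for members that passed, members without overlap and the most abundant of each role group. Bax, Bbc3 and Perp were added after their values were seen. From other lists at most 4 passing genes per direction are named, with Trp53, Mdm4 and relatives of the members that passed. Coordinates and sequences are from RefSeq (GRCm38.p6).

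The fit was tested on simulated data with 200 known changes in each of 10 draws before use. It recovered 30.3% of changes of 1.25-fold, 68.2% of 1.5-fold and 88.5% of 2-fold, and 5.67% of its calls were false. It therefore missed most changes of 1.25-fold, and a member that did not pass may still differ by such an amount. Alternatives (15) covered pseudocount, filter, scaling, prior, voom, a replicate block and leaving out each library. Fragments of libraries in a group differed beyond sampling noise (chi-square 3.02 to 6.55 per degree of freedom). Tables were read with Python 3.11.15 and pandas 2.3.3 and drawn with matplotlib 3.10.9.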

Additional observations from a re-analysis of the deposited data

How the results depend on the processing

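The number of members lower in limma was 3 as reported, 6 with quantile normalization, 6 by voom, 1 with no filter on level (Plk2), 1 with the replicate block (Plk3) and 0 to 5 without 1 library (0 without conditioned replicate 1 or 2, 5 without control replicate 1). The number higher was 0 as reported, 1 (Ckap2) at a mean of at least 5 FPKM, 1 by voom, and 0 to 1 without 1 library. The 763 genes called in all became 492 with no filter on level, 390 with the replicate block, and 394 to 676 without 1 library. The log2 fold changes of Plk2, Plk3 and Sesn2 stayed negative in all 15 settings (-0.25 to -0.20, -0.43 to -0.33 and -0.24 to -0.18), and passed in 12, 10 and 7 of them. The count of members without overlap was 12 as reported, 10 to 14 in the settings that kept all libraries, and 13 to 16 without 1. Leaving out a library can remove overlap but cannot create it. The count without 1 library therefore could not fall below 12, and it says nothing of how stable the 12 are. The share of all genes without overlap in these settings is not given here. Uncalled values of 7 members changed sign in some setting: Tnfrsf10b with TMM factors (-0.005), quantile normalization (-0.028) and voom (-0.004) and at -0.030 to 0.038 without 1 library, Pidd1 with TMM factors and quantile normalization and without 1 library (-0.016 to 0.023 over all settings), and, without 1 library, Ccng1 (-0.054 to 0.007), Polk (-0.116 to 0.014), Gtse1 (-0.074 to 0.038 over all settings), Tigar (-0.047 to 0.101) and Gadd45a (-0.001 to 0.175). The cause of these moves was not tested. The median log2 fold change of the members stayed negative in every setting. Deviations from the group mean showed no pairing by replicate number. They correlated at -0.095, -0.008 and -0.048 for same-numbered libraries and at -0.032 to 0.073 for differently numbered ones. Such values cannot tell whether libraries were prepared in pairs, so the replicate block rests on numbers alone. With the replicate block the mitotic list had 0 higher, the further targets 0 in either direction, the cyclin list 0 lower, the BCL2 and caspase list 0 lower, and the immediate early list 5 lower and 1 higher. The 3 libraries per group limit what small differences can pass.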
